A study of Homo sapiens with 2 samples.

Results

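The genes that make sterols and fatty acids under the SREBP transcription factors were compared between 2 RNA sequencing libraries of PLC/PRF/5 cells, a long-established line from a human hepatocellular carcinoma. The set holds 33 genes, matched by gene identifier among the 27685 genes listed in both libraries, namely the SREBP factors and the proteins that control their release, 18 enzymes of sterol synthesis, 9 enzymes of fatty acid synthesis and a sterol transporter. One library came from cells kept for 24 h in DMSO, the solvent control, and the other from cells kept for 24 h in 6 µM JIB-04, a small molecule that inhibits Jumonji histone demethylases. One label of the control sample reads untreated, but its title names DMSO. With 1 library per condition, no difference has a replicate check, no test across replicates was possible, and the effect of the compound cannot be told apart from differences between the cultures or library preparations. In bulk RNA, a difference in the make-up of the cells and one in the RNA per cell cannot be told apart either.

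SREBP1 and SREBP2, encoded by SREBF1 and SREBF2, are made as membrane proteins of the endoplasmic reticulum and bind the escort protein SCAP. When sterols are scarce, SCAP carries them to the Golgi, where proteases release a fragment that enters the nucleus and activates the genes of sterol and fatty acid synthesis. When sterols are plentiful, the INSIG proteins hold SCAP in the endoplasmic reticulum, and INSIG1 is itself an SREBP target, which closes a feedback loop. In liver cells SREBP2 is best known for the sterol enzymes and SREBP1 for the fatty acid enzymes.

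Levels are given as TPM, a share of all transcripts that corrects for transcript length and sums to the same total in each library, so a larger share for some genes lowers that of the others. Transcript values were summed to give 1 TPM value per gene, and the log2 ratio is that of TPM plus a pseudocount of 1, JIB-04 over DMSO, which understates the difference of weakly expressed genes. Genes with at least 1 TPM in either library were described, 14450 in all, and all 33 SREBP pathway genes were among them. The libraries held an estimated 28187793 (DMSO) and 23721989 (JIB-04) aligned fragments, of which 183993 and 176665 fell on the 33 genes. The interval in brackets after a log2 ratio is the 95% exact binomial interval from the estimated fragments of that gene, and it covers counting error only. The median log2 ratio of all described genes was -0.15, so a ratio of 0 lay above most genes. GAPDH, the reference gene of the study's qRT-PCR, was at 7975 TPM in DMSO cells and 20148 TPM in JIB-04 cells. Ratios divided by that of GAPDH are therefore far lower, and they are given beside each ratio whose sign they turn. Of 12 hepatocyte markers, 7 reached 10 TPM in each library, and their sum was 9082 TPM in DMSO cells and 5790 TPM in JIB-04 cells, most of it from the keratins KRT8 (3212 and 1912 TPM) and KRT18 (4484 and 2214 TPM). The markers did not go 1 way, since FGB (771 and 961 TPM) and TF (381 and 422 TPM) were higher with JIB-04. Of the 11 markers described, 6 were higher and 5 lower, where 39.7% and 60.3% of all described genes were. Of 10 markers of other cell types, 7 stayed under 1 TPM in both libraries, whereas CD68 (97.0 and 137 TPM) and COL1A1 (16.0 and 10.6 TPM) did not, and the part of these differences in the results was not tested.

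The DNA before the start of 5 of these genes is printed because their levels carry the main contrasts described here. INSIG1 and INSIG2 encode the retention proteins and had the highest ratios, TM7SF2 and ELOVL6 had the lowest, and SREBF2 encodes the factor of the sterol enzymes. Each line is the 250 bases before the annotated start, 5′ to 3′ on the gene's own strand, from RefSeq on GRCh38.p14. The windows are chr7:155297628-155297877 (INSIG1, plus strand), chr2:118088221-118088470 (INSIG2, plus strand), chr22:41832855-41833104 (SREBF2, plus strand), chr11:65111622-65111871 (TM7SF2, plus strand) and chr4:110198616-110198865 (ELOVL6, minus strand). INSIG2 has a second annotated start, whose window is not shown. Capitals mark 4 motifs searched on both strands, namely the sterol regulatory element TCACNCCAC, the CCAAT box, the GC box with the letters GGGCGG, and the E-box with the letters CACGTG. A match on the opposite strand is printed as its reverse complement. Neighbouring GC boxes can touch or overlap and then appear as 1 run of capitals.
INSIG1: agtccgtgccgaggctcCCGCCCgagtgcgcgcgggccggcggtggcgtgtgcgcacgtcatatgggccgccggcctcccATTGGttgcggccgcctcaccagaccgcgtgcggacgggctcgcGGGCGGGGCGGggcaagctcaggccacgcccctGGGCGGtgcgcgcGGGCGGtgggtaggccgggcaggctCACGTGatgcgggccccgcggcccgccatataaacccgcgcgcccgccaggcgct
INSIG2: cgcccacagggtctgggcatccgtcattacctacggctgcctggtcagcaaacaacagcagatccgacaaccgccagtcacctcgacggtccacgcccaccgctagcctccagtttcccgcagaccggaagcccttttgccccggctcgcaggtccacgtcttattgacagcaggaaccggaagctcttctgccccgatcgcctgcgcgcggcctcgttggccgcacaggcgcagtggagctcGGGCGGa
SREBF2: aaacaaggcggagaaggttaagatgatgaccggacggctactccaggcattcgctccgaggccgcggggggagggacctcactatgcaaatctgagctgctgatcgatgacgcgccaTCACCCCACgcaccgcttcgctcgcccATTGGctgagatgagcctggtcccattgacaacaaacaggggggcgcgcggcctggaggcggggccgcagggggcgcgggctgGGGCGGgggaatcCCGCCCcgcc
TM7SF2: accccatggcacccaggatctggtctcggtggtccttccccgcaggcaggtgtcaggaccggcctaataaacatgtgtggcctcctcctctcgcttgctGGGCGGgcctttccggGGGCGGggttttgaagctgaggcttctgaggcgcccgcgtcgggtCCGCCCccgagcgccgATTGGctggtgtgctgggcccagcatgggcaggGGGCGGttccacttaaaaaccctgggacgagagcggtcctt
ELOVL6: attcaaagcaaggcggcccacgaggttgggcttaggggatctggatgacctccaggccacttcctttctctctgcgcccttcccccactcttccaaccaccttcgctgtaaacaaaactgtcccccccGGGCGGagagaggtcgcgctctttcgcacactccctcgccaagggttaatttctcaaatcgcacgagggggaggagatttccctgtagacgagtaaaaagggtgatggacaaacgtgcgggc

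Upstream windows were found for 29 of the 33 genes, with no entry for ACAT2, FDFT1, SQLE and FASN. The CCAAT box, bound by the factor NF-Y that acts beside SREBPs at many sterol genes, was present in 21 of the 29 (72.4%), against 41.6% of the 11101 described genes with a window. At least 2 CCAAT boxes were present in 14 of the 29, against 15.4% of those genes. The GC box, bound by Sp1, was present in 28 of the 29 (96.6%), against 73.6%, and the E-box in 3 (10.3%), against 11.1%. The sterol regulatory element, in the exact letters searched, was found upstream of SREBF2 alone among the 29 genes, 133 to 125 bases before the start, against 1.10% of the described genes. INSIG1 held a CCAAT box 170 to 166 bases before its start, an E-box at 55 to 50 and 5 GC boxes, and the printed INSIG2 window held a single GC box. TM7SF2 had a CCAAT box and 4 GC boxes, while ELOVL6, like INSIG2, had a single GC box and no CCAAT box. A match describes the letters of the window and not a bound site.

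On the TPM scale 29 of the 33 SREBP pathway genes lay within 2-fold of their DMSO levels, a share like that of genes at large (12591 of 14450). Both INSIG genes stood highest. Only INSIG1 and INSIG2 were at least 2-fold higher with JIB-04, 2 of 33 genes, where 5.99% of all described genes passed that limit. TM7SF2 and ELOVL6 were at least 2-fold lower, again 2 of 33, where 6.88% of all described genes did. Scaling to the median gene left both counts at 2 and put these shares of all described genes at 7.67% and 4.70%. The median log2 ratio of the 33 genes was 0.14, and 21 genes were above 0 and 12 below, where 39.7% of all described genes were above 0 and 60.3% below. Division by GAPDH moved every gene down by the same factor, to a median of -1.17 and 26 genes at least 2-fold lower among the 33, and to -1.29 and 67.9% among all described genes. The counting interval lay above 0 for 18 of the 33, where it did for 28.1% of all described genes, and below 0 for 10, where it did for 46.3%. Together the 33 genes took up 4196 TPM in DMSO cells and 4792 TPM in JIB-04 cells, which is 0.420% and 0.479% of the total. The higher sum lay in SCD (627 and 1118 TPM) and in the INSIG genes together (79.6 and 329 TPM), singled out after their values were seen. The sterol enzymes (2351 and 2330 TPM) and the fatty acid enzymes without SCD (863 and 699 TPM) were not higher in sum.

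**Figure D1:**
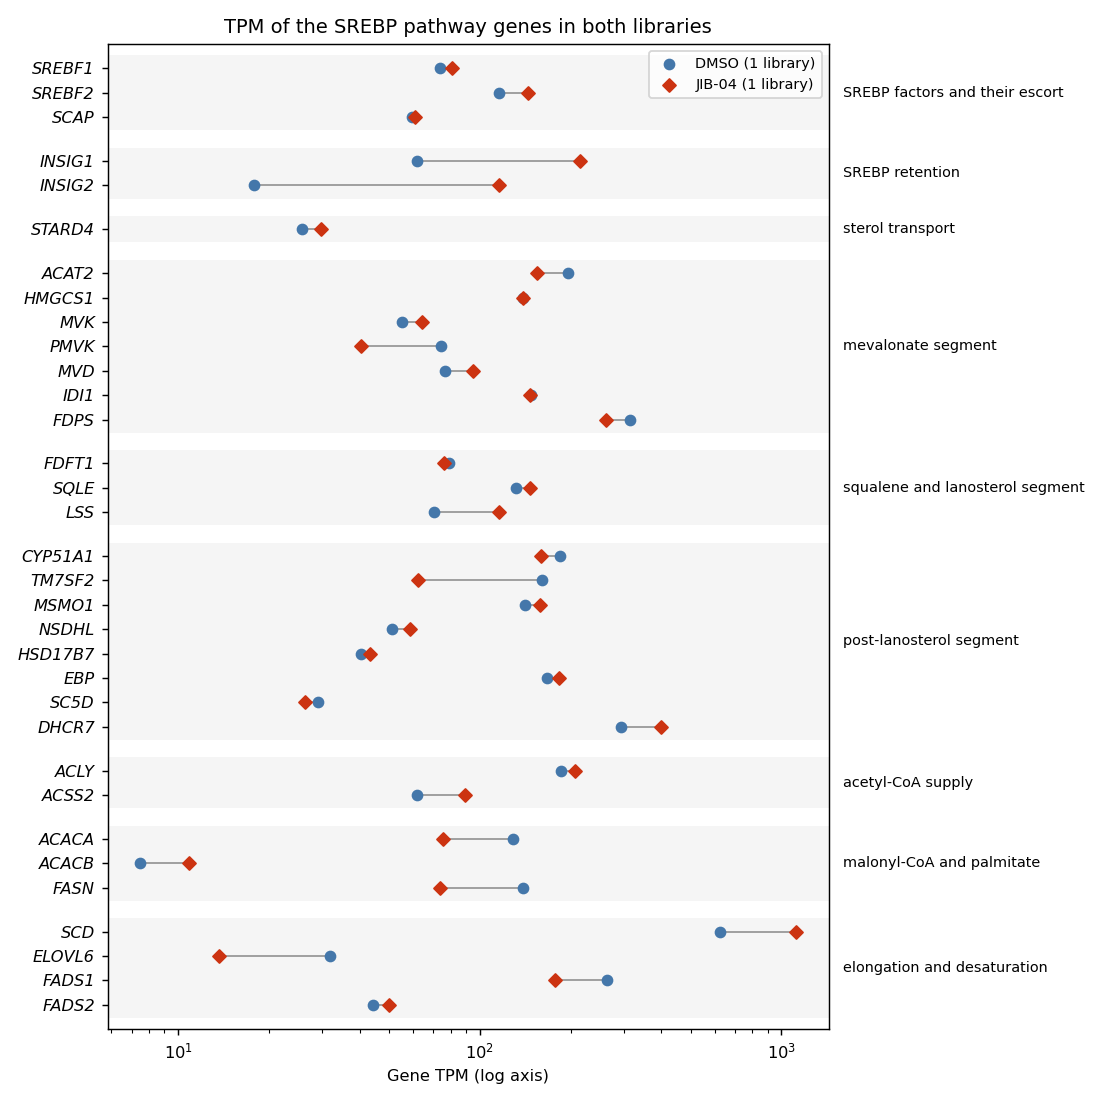
Gene TPM on a log axis for the 33 SREBP pathway genes, grouped by role, with 1 DMSO library (circles) and 1 JIB-04 library (diamonds) joined by a line. The widest gaps are at INSIG1 (61.7 and 214 TPM), INSIG2 (17.9 and 115 TPM), TM7SF2 (161 and 62.3 TPM) and ELOVL6 (31.9 and 13.6 TPM), and SCD is the most abundant gene in both libraries.

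The mRNAs of the SREBP factors and of their escort differed little between the libraries. SREBF1, the SREBP1 gene, was at 73.6 TPM in DMSO cells and 81.1 TPM in JIB-04 cells, a log2 ratio of 0.14 [0.07, 0.20], or -1.17 after division by GAPDH. SREBF2, the SREBP2 gene, was at 116 and 144 TPM, with a log2 ratio of 0.31 [0.26, 0.35], or -1.01 after division by GAPDH. SCAP was at 59.7 and 61.1 TPM, and its interval of -0.04 to 0.11 around a log2 ratio of 0.03 held 0. Its ratio was -1.27 after division by GAPDH. The level of SREBF2 over that of SREBF1 was 1.58 with DMSO and 1.77 with JIB-04.

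Both retention genes stood apart from the rest of the pathway. INSIG1 (chromosome 7 of hg19, 155089482 to 155101945) was at 61.7 TPM in DMSO cells and 214 TPM in JIB-04 cells, from an estimated 2233 and 6400 fragments. That is 3.47-fold higher, a log2 ratio of 1.78 [1.71, 1.85], and 1.65% of all described genes had a higher ratio. INSIG2 (chromosome 2, 118845994 to 118867607) was at 17.9 and 115 TPM, from 549 and 2957 fragments. It was 6.46-fold higher, a log2 ratio of 2.63 [2.50, 2.75], and 0.374% of all described genes had a higher ratio. INSIG2, unlike INSIG1, is not known as a direct target of nuclear SREBP. The intervals of the 2 genes do not overlap, so the INSIG2 ratio exceeded that of INSIG1 beyond counting error. Both remained above their DMSO level after division by GAPDH, at 0.45 for INSIG1 and 1.31 for INSIG2.

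The difference ran along both transcripts rather than resting on 1 exon. Exons were cut at every annotated boundary into segments, and segments of at least 50 bases with a level of at least 5 in either library were read, where the level is the deposited exon coverage on the TPM scale. All 9 segments of INSIG1 were higher with JIB-04, 8 of them by at least 2-fold, with log2 ratios from 0.73 to 2.02. All 6 segments of INSIG2 were at least 2-fold higher, from 2.23 to 3.46. The most abundant INSIG1 transcript was the same in both libraries, at 34.8 and 127 TPM, or 56.4% and 59.3% of the gene. That of INSIG2 was at 14.8 and 89.8 TPM, or 83.0% and 77.8% of the gene. Transcripts from the second INSIG2 start, at position 118846126, were listed at 0 with DMSO and at 14.9 TPM with JIB-04. The 117 bases of their first exon were at only 2.77 with JIB-04 on the TPM scale. Coverage was low at the main start as well, where 124 bases of the first exon were at 5.57 with JIB-04. Transcripts from that start were estimated at 100 TPM with JIB-04.

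The INSIG mRNA level relative to that of SCAP mRNA was higher with JIB-04. Protein was not measured in these libraries, so the amount of INSIG protein per SCAP protein is not known. INSIG1 and INSIG2 together held 79.6 TPM in DMSO cells and 329 TPM in JIB-04 cells, so their sum over SCAP was 1.33 and 5.39. INSIG1 was 3.46 times as abundant as INSIG2 with DMSO and 1.86 times with JIB-04. Among the 33 genes INSIG1 ranked 23rd by TPM in DMSO cells and 4th in JIB-04 cells, and INSIG2 ranked 32nd and 16th. STARD4, which carries cholesterol between membranes, was at 25.7 and 29.7 TPM, with a log2 ratio of 0.20 [0.09, 0.31], or -1.07 after division by GAPDH.

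**Figure D2:**
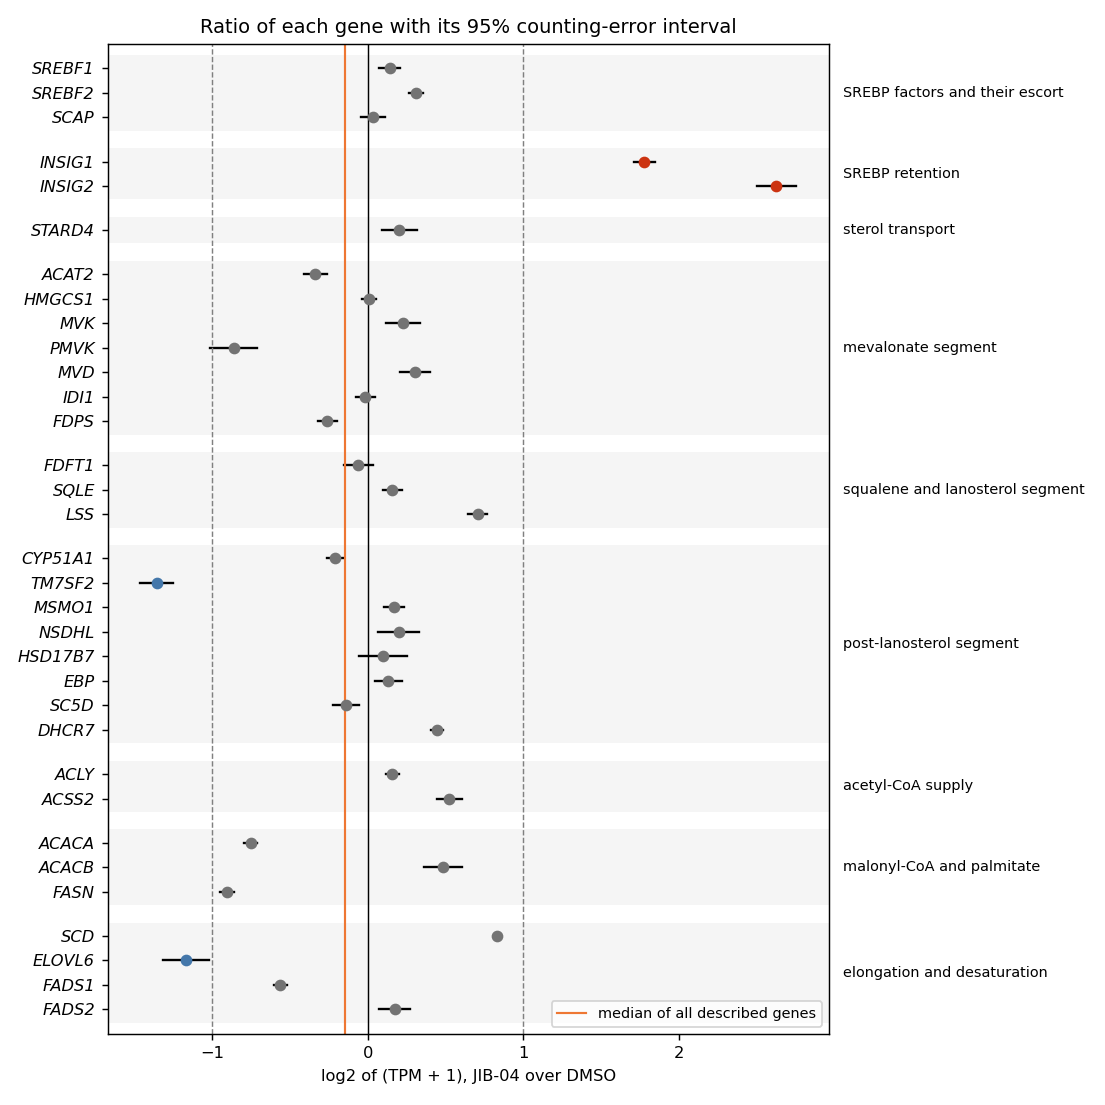
Log2 ratio of TPM + 1, JIB-04 over DMSO, for the 33 genes, with points for the ratio, bars for the 95% counting interval, dashed lines at 2-fold and an orange line at the median of all described genes. INSIG1 (1.78) and INSIG2 (2.63) lie beyond 2-fold on the right and TM7SF2 (-1.36) and ELOVL6 (-1.17) on the left; after division by GAPDH only genes right of about 1.34 remain above 0.

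The first stretch of sterol synthesis, from acetyl-CoA to farnesyl diphosphate, differed between the libraries at PMVK above all. PMVK, phosphomevalonate kinase, was at 74.1 TPM in DMSO cells and 40.2 TPM in JIB-04 cells, or 0.543 times, a log2 ratio of -0.86 [-1.01, -0.72]. HMGCS1, which makes the HMG-CoA that enters the pathway, was at 139 TPM in both libraries, with a log2 ratio of 0.01 [-0.04, 0.05], or -1.315 after division by GAPDH. IDI1, the isomerase of isopentenyl diphosphate, was at 148 and 146 TPM, and its interval of -0.07 to 0.04 also held 0.
These 2 genes are classic SREBP2 targets. ACAT2, the cytosolic acetyl-CoA acetyltransferase of the first step, was at 197 and 155 TPM, with a log2 ratio of -0.34 [-0.41, -0.26]. FDPS, which makes farnesyl diphosphate, was at 314 and 262 TPM, with a log2 ratio of -0.26 [-0.32, -0.20]. Mevalonate kinase, MVK, was at 55.0 and 64.4 TPM, with a log2 ratio of 0.22, or -1.08 after division by GAPDH. The decarboxylase that follows PMVK, MVD, was at 76.8 and 94.8 TPM, with a log2 ratio of 0.30, or -1.01 after division by GAPDH. Thus the PMVK level lay lower in JIB-04 cells while those of the enzymes before and after it lay higher on the TPM scale, though not after division by GAPDH. The 7 genes of this stretch had a median log2 ratio of -0.02 and held 1003 TPM in DMSO cells and 902 TPM in JIB-04 cells.

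The enzymes that turn farnesyl diphosphate into lanosterol were level or higher on the TPM scale. LSS, lanosterol synthase, was at 70.6 and 116 TPM, 1.64-fold higher, a log2 ratio of 0.71 [0.64, 0.77], or -0.61 after division by GAPDH. All 24 of its exon segments were above 0 on the TPM scale. SQLE, squalene epoxidase, the first oxygen-using step, was at 131 and 147 TPM, with a log2 ratio of 0.16 [0.10, 0.22], or -1.16 after division by GAPDH. FDFT1, squalene synthase, was at 79.1 and 75.8 TPM, and its interval of -0.15 to 0.03 held 0.

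Of the 8 enzymes after lanosterol, TM7SF2 was the exception to a narrow range. TM7SF2 (chromosome 11 of hg19, 64879326 to 64883707), a sterol C14-reductase, was at 161 TPM in DMSO cells and 62.3 TPM in JIB-04 cells, from 3032 and 967 fragments. That is 0.386 times its DMSO level, a log2 ratio of -1.36 [-1.46, -1.26], and all 10 of its exon segments were at least 2-fold lower. Its exons share 0.437% of their bases with the neighbouring gene VPS51. LBR, a nuclear envelope protein with the same reductase activity that was chosen after its value was seen, was also lower, at 98.2 and 48.0 TPM, a log2 ratio of -1.02 [-1.10, -0.94].
CYP51A1, the lanosterol demethylase that supplies the substrate of both reductases, was at 184 and 159 TPM, with a log2 ratio of -0.21 [-0.27, -0.16]. Its exons did not go 1 way, since 6 of its 11 segments were above 0 and 5 below, with a median of 0.02. The last exon, of 1695 bases, was at -0.46. DHCR7, 7-dehydrocholesterol reductase, a last step toward cholesterol, was at 293 and 399 TPM, with a log2 ratio of 0.44 [0.40, 0.48], or -0.89 after division by GAPDH. SC5D, the desaturase before it, was at 29.2 and 26.3 TPM, with a log2 ratio of -0.14 that turned to 0.01 when ratios were scaled to the median gene. The other 4 enzymes had log2 ratios between 0.10 and 0.20, all below 0 after division by GAPDH. They are MSMO1 (141 and 158 TPM), a C4-methyl oxidase, NSDHL (51.1 and 58.8 TPM), a C4 decarboxylase, HSD17B7 (40.3 and 43.1 TPM), a 3-ketosteroid reductase, and EBP (167 and 183 TPM), a sterol isomerase. HSD17B7 alone among those 4 had an interval that held 0.

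Fatty acid synthesis split between its core enzymes and the desaturase that follows them. FASN (chromosome 17 of hg19, 80036214 to 80056106), the fatty acid synthase, was at 139 TPM in DMSO cells and 73.6 TPM in JIB-04 cells, from 13973 and 6119 fragments. That is 0.530 times, a log2 ratio of -0.91 [-0.95, -0.86], and all 43 exon segments were below 0. ACACA (chromosome 17, 35441927 to 35766902), the cytosolic acetyl-CoA carboxylase that makes malonyl-CoA, was at 128 and 75.7 TPM, with a log2 ratio of -0.75 [-0.80, -0.71].
Both stayed within 2-fold, as did PMVK. ACACB, the mitochondrial carboxylase whose malonyl-CoA restrains fatty acid oxidation, was much weaker, at 7.48 and 10.9 TPM, a log2 ratio of 0.48 [0.36, 0.60], or -0.68 after division by GAPDH. ACACA was 17.2 times as abundant as ACACB with DMSO and 6.97 times with JIB-04.

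The enzymes that supply acetyl-CoA were higher on the TPM scale but not after division by GAPDH. ACLY, ATP citrate lyase, was at 186 and 207 TPM, with a log2 ratio of 0.16 [0.11, 0.20], or -1.17 after division by GAPDH. ACSS2, which makes acetyl-CoA from acetate, was at 61.9 and 89.5 TPM, with a log2 ratio of 0.52 [0.44, 0.60], or -0.79 after division by GAPDH.

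Past palmitate, the desaturase and the elongase went opposite ways on the TPM scale. SCD (chromosome 10 of hg19, 102106772 to 102124588), the delta-9 desaturase that makes oleate and palmitoleate, was the most abundant of the 33 genes, at 627 TPM in DMSO cells and 1118 TPM in JIB-04 cells. It was 1.78-fold higher, a log2 ratio of 0.83 [0.81, 0.85], or -0.50 after division by GAPDH. ELOVL6 (chromosome 4, 110970229 to 111119820), which lengthens palmitate to stearate, was at 31.9 and 13.6 TPM, from 1218 and 443 fragments. It was at 0.427 times its DMSO level, a log2 ratio of -1.17 [-1.32, -1.02], with all 6 exon segments below 0 and 2 of them at least 2-fold lower.
SCD was 4.52 times as abundant as FASN with DMSO and 15.2 times with JIB-04, and 19.6 and 82.0 times as abundant as ELOVL6. These ratios are taken within a library and do not depend on how the libraries were scaled. FADS1, the delta-5 desaturase of polyunsaturated fatty acids, was at 264 and 178 TPM, with a log2 ratio of -0.56 [-0.60, -0.52]. FADS2, the delta-6 desaturase, was at 44.2 and 49.9 TPM, with a log2 ratio of 0.17 [0.07, 0.27], or -1.12 after division by GAPDH. The level of FADS1 over that of FADS2 was 5.97 with DMSO and 3.57 with JIB-04.

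**Figure D3:**
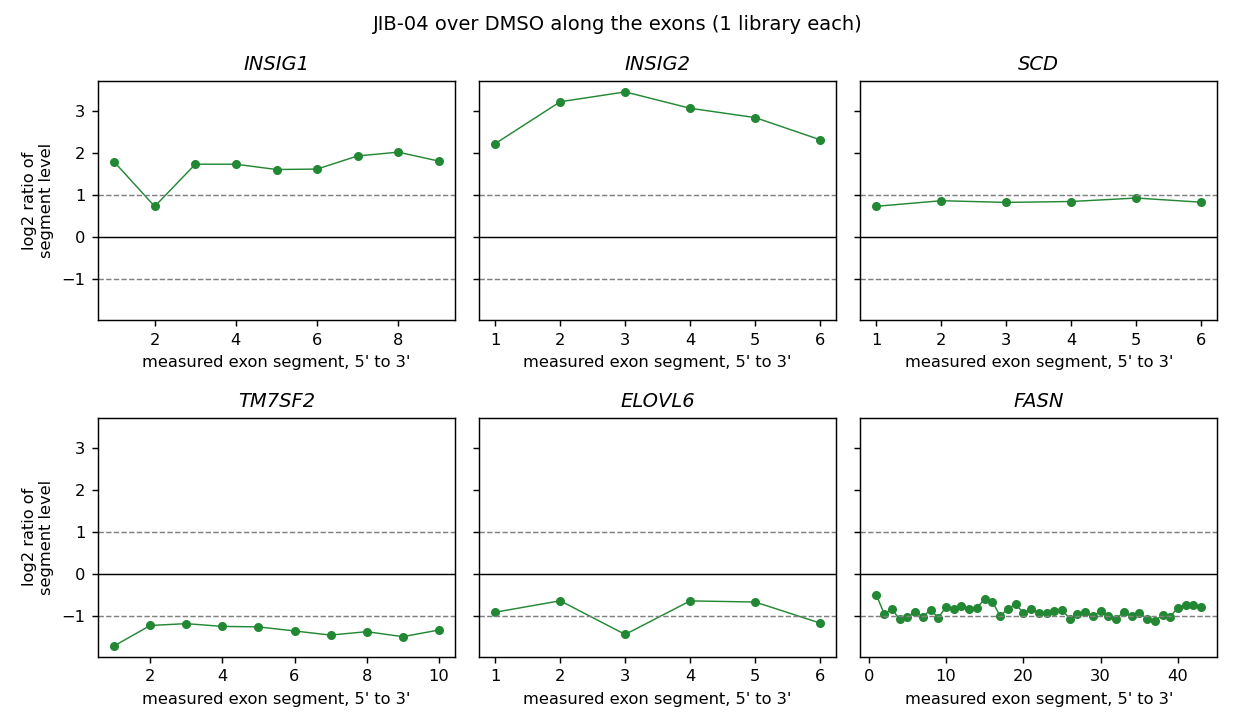
Log2 ratio of the exon segment level, JIB-04 over DMSO, for each measured segment from the 5′ to the 3′ end of 6 genes, with dashed lines at 2-fold and 1 library per condition. All segments of INSIG1, INSIG2 and SCD lie above 0 on the TPM scale, where SCD would be below 0 after division by GAPDH, and all those of TM7SF2, ELOVL6 and FASN lie below 0.

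The sterol enzymes and the fatty acid enzymes had like medians when SCD was kept, and the fatty acid enzymes were spread more widely, from -1.17 to 0.83. The median log2 ratio was 0.05 for the 18 sterol enzymes and 0.16 for the 9 fatty acid enzymes, against -0.15 for all described genes, and both medians turned negative after division by GAPDH (-1.25 and -1.17) or when each gene was read from its most abundant transcript. The fatty acid median was -0.20 without SCD, which was left out after its value was seen. Each arm held 1 gene at least 2-fold lower, TM7SF2 and ELOVL6, and none at least 2-fold higher. These counts are too small to set against the shares of all described genes (6.88% lower and 5.99% higher). The sterol enzymes had a standard deviation of 0.47 and a median absolute log2 ratio of 0.21, and the fatty acid enzymes 0.72 and 0.56. The corresponding values were 0.70 and 0.41 for all described genes, and 0.67 and 0.38 for the 9827 genes within the same range of mean TPM as the 33. The sterol enzymes were thus less spread than genes at large by both measures. The fatty acid enzymes were close to genes at large by the standard deviation and wider by the median absolute ratio. No test was made of these differences.

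The sterol enzymes together held 2351 TPM in DMSO cells and 2330 TPM in JIB-04 cells, or 0.991 times. The fatty acid enzymes held 1490 and 1817 TPM, or 1.22 times. Without SCD, left out after its value was seen, they held 863 and 699 TPM, or 0.810 times. The 3 enzymes of malonyl-CoA and palmitate held 275 and 160 TPM, or 0.583 times. The 7 enzymes that use molecular oxygen (SQLE, CYP51A1, MSMO1, SC5D, SCD, FADS1 and FADS2) had a median log2 ratio of 0.16 and ranged from -0.56 to 0.83. The median of the 20 enzymes that use no oxygen was 0.05. The count past 2-fold, 0 of 7 and 2 of 20, is too small to set against the shares of all described genes (5.99% higher and 6.88% lower).

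For most of these genes the leading transcript was the same in both libraries, and for a few it was not. Of the 26 genes with at least 2 annotated transcripts, 22 had the same most abundant transcript in both libraries, a share that was not computed for genes at large. The others were ELOVL6, LSS, FDFT1 and STARD4. The leading ELOVL6 transcript with DMSO held 93.3% of the gene there and 45.5% with JIB-04, and the other transcript held 6.70% and 54.5%, or 2.14 and 7.43 TPM. The higher TPM of the other transcript was not seen in the exon coverage. The 154 bases found only in it were at 5.03 with DMSO and 2.85 with JIB-04 on the TPM scale. Their log2 ratio of -0.64 was the nearest to 0 of the 6 measured segments (median -0.80). The coverage therefore does not settle whether the share of that transcript was larger. For LSS the leading transcript with DMSO held 55.9% and 31.9%, and the second 30.4% and 50.5%. For FDFT1, with 11 annotated transcripts, the leading share was 67.5% and 29.9%. Transcripts of a gene share most of their exons, so these shares are estimates of the authors' software and have no counting interval here.

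SREBF1 shows the same limit. The gene is known for alternative promoters, and the files list an upstream start at position 17740325 and a downstream start at 17726978. Transcripts from 17740325 were estimated at 32.0 TPM in DMSO cells and 23.4 TPM in JIB-04 cells, and the transcript from 17726978 at 41.6 and 57.8 TPM. The exon coverage gave another picture. The first exon of the 17740325 transcripts was at 31.4 with DMSO and 44.2 with JIB-04 on the TPM scale, higher with JIB-04 where the transcripts were estimated lower. The 57 bases found only in the downstream transcript were at 4.07 and 8.20, far under its estimated TPM in both libraries. A shift between the SREBF1 starts is therefore not shown by these files. The gene TPM also depends in part on the split, because TPM corrects for length and the transcripts are 4050, 4911 and 5001 bases long.

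**Figure D4:**
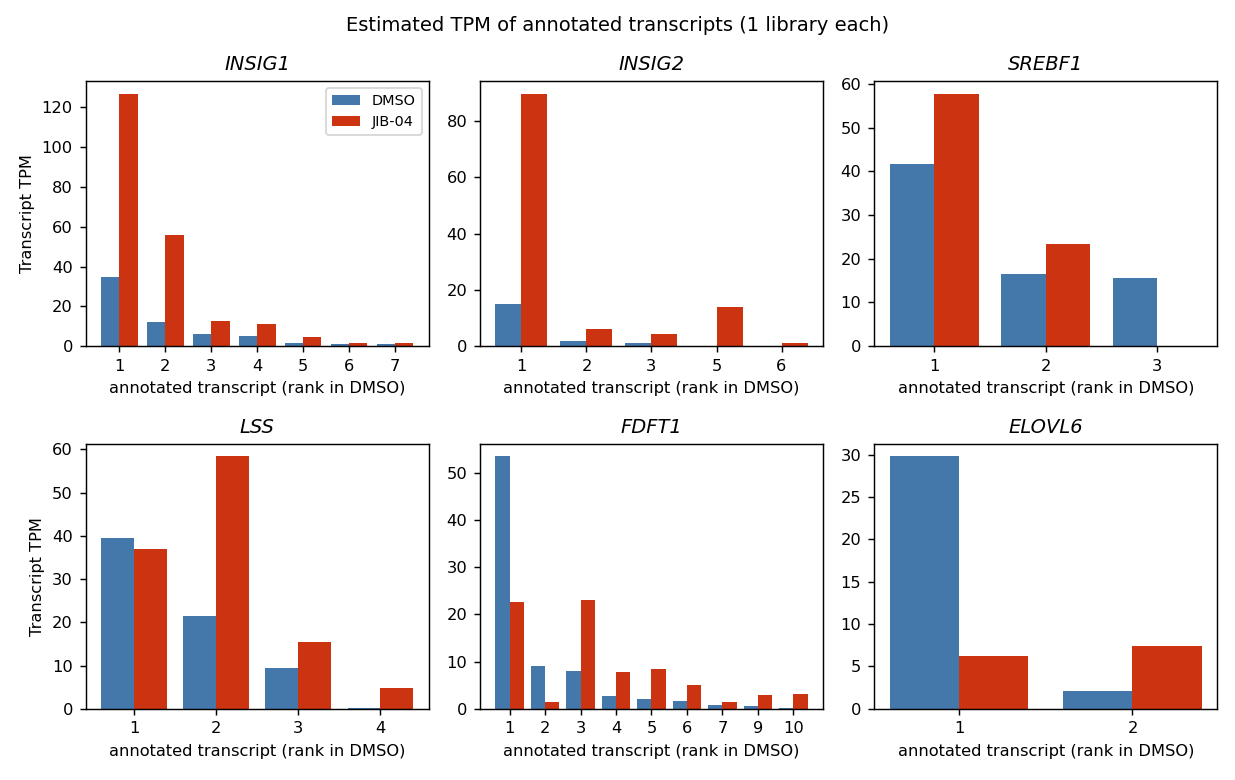
Estimated TPM of each annotated transcript, ranked by its TPM with DMSO, for 6 genes, with 1 bar per library (blue, DMSO; red, JIB-04) and axes that start at 0. The leading transcript is the same in both libraries for INSIG1, INSIG2 and SREBF1 and differs for LSS, FDFT1 and ELOVL6.

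The genes that move SREBP to the Golgi, cleave it and turn INSIG over stayed mostly within 2-fold, as did genes at large. Of 20 such genes, 0 were at least 2-fold higher and 1 was at least 2-fold lower, where 5.99% and 6.88% of all described genes were. By sign, 4 were above 0 and 16 below, where 60.3% of all described genes were below, and their median log2 ratio was -0.24, against -0.15. The gene past the limit was MBTPS2, the site-2 protease that makes the second cut, at 76.2 TPM in DMSO cells and 34.9 TPM in JIB-04 cells, a log2 ratio of -1.10 [-1.19, -1.02]. MBTPS1, the site-1 protease that makes the first cut, was at 80.1 and 74.1 TPM, with a log2 ratio of -0.11 (chosen after its value was seen). ERLIN2, an endoplasmic reticulum protein that restrains SREBP export, was at 45.3 and 30.4 TPM, with a log2 ratio of -0.56. The highest ratios were those of SEC24A, a cargo adaptor of the vesicles that leave the endoplasmic reticulum, at 29.6 and 52.2 TPM (0.80), and PAQR3, which tethers SCAP and SREBP to the Golgi, at 7.88 and 12.1 TPM (0.56). Both of these turned negative after division by GAPDH, which lowers a log2 ratio by about 1.34, and by less for weakly expressed genes.

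Among SREBP targets outside the 33 genes, 13 of 14 listed were described, and they too lay on both sides of 0. The median log2 ratio was -0.12, and 2 genes passed 2-fold upward and 1 downward, counts too small to set against the shares of all described genes. LPIN1, a phosphatidate phosphatase of triglyceride synthesis, was at 6.80 and 25.01 TPM, with a log2 ratio of 1.74 [1.60, 1.88]. NPC1, which exports cholesterol from lysosomes, was at 87.5 and 182 TPM, with a log2 ratio of 1.04 [0.99, 1.09] that turned negative after division by GAPDH.
These stood with the INSIG genes on the higher side. TMEM97, a sterol-regulated membrane protein, was at 65.9 and 25.1 TPM, with a log2 ratio of -1.36 [-1.49, -1.23]. ELOVL5, an elongase of polyunsaturated fatty acids, was at 201 and 111 TPM, with a log2 ratio of -0.85 [-0.91, -0.79]. One listed gene, THRSP, was at 0 in both libraries.

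**Figure D5:**
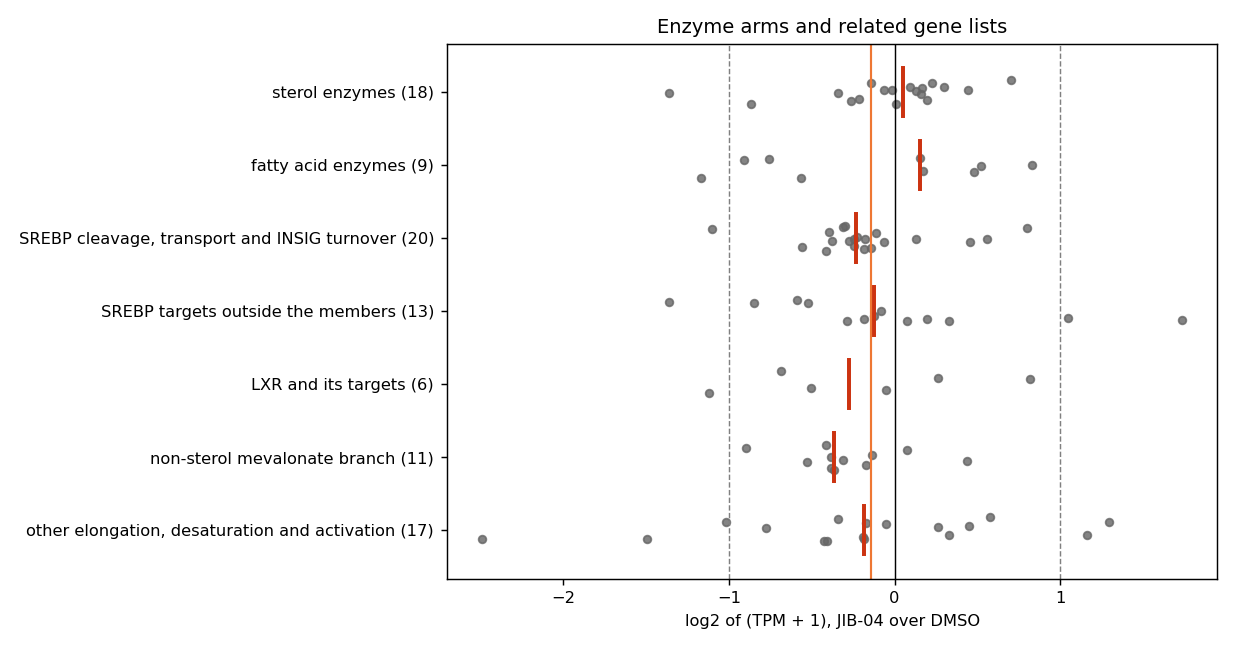
Log2 ratio of TPM + 1, JIB-04 over DMSO, for each gene of the sterol and fatty acid arms and of 5 related lists (number of genes in brackets), with red bars for list medians, dashed lines at 2-fold and an orange line at the median of all described genes. The sterol and fatty acid medians (0.05 and 0.16) lie above those of the related lists, all of them between -0.37 and -0.12, and division by GAPDH would move every median below 0. Without SCD, left out after its value was seen, the fatty acid median is -0.20, within the range of the related lists.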

How the data were processed

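The SREBP pathway genes and the related gene lists were chosen with earlier results of these data known. Per the paper's methods and the submitters' processing notes, stranded mRNA libraries were trimmed with Trimmomatic 0.32, checked with FastQC 0.11.5, aligned to hg19 with HISAT2 2.0.5 and Bowtie2 2.2.6, and quantified with StringTie 1.3.3b. For each annotated RefSeq transcript the authors deposited coverage, FPKM and TPM, and coverage for each exon, with no read counts. Genes were matched by Entrez identifier, and TPM was summed per gene. To estimate fragments, the coverage of a transcript was multiplied by its length and divided by 202 aligned bases (a pair of 101-base mates). Only 31.4% (DMSO) and 30.3% (JIB-04) of the weakly covered genes tried came out near a whole number of fragments, so these remain estimates. Intervals are exact conditional binomial at 95%. All 33 genes are named, and of each related list the 2 highest and 2 lowest log2 ratios at a mean TPM of at least 5. LBR, MBTPS1, THRSP and some elongases are named outside that rule. Upstream windows came from a RefSeq table of GRCh38.p14, used for sequence alone, while gene coordinates are those of the files. On simulated libraries of 14450 genes, on average 99.6 of 100 genes raised 3-fold and 98.8 of 100 lowered 3-fold passed 2-fold. The raised and lowered genes were taken from those with a mean TPM of at least 5. Among the better covered genes, 95.3% of intervals covered the true value. The simulated fragments were drawn with the counting error that the interval assumes. This coverage therefore checks the calculation and not the error of the estimated fragments. The software was Python 3.11.15 with SciPy 1.17.1, pandas 2.3.3, numpy 2.4.6 and matplotlib 3.10.9. Some genes of the pathway and of the related lists are not reported here.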

Additional observations from a re-analysis of the deposited data

How the results depend on the processing

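Both INSIG genes stayed above 0 and TM7SF2 and ELOVL6 below 0 under every alternative run, namely other pseudocounts, filters, FPKM, 3 scalings and the most abundant transcript. With a pseudocount of 5, 1 gene was at least 2-fold lower and INSIG2 was at 2.40. Scaling to the median gene put the medians at 0.29 (all 33 genes) and 0.20 (sterol enzymes), INSIG1 at 1.93 and INSIG2 at 2.78. Division by GAPDH moves all genes by 1 factor. It left 1 gene at least 2-fold higher and 26 lower (0.907% and 67.9% of all described genes), put the medians at -1.17 (all 33 genes), -1.25 (sterol enzymes) and -1.17 (fatty acid enzymes), INSIG1 at 0.45 and INSIG2 at 1.31, and changed the sign of 19 of the other 31 genes. GAPDH was itself 2.53-fold higher in TPM. The most abundant transcript put the medians of the sterol and fatty acid enzymes at -0.0198 and -0.0112 and changed the sign of 6 genes. At 1.5-fold, 4 genes were higher and 5 lower (12.8% and 21.0% of all described genes), and at 3-fold 0 were lower (1.07%). No paired analysis was possible because each condition has 1 library.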

Other observations

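Genes beside the main pathway were read in 3 further lists, each described by its counts and log2 ratios. Division by GAPDH would lower these ratios by about 1.34, and by less for weakly expressed genes because of the pseudocount. Among all described genes 5.99% were at least 2-fold higher, 6.88% at least 2-fold lower and 60.3% below 0, with a median of -0.15, and these lists are too short to set their counts against those shares. The enzymes that draw on the mevalonate pathway for prenyl groups, ubiquinone and dolichol, 11 genes, held 0 genes past 2-fold in either direction, 2 above 0 and 9 below, with a median log2 ratio of -0.37. PDSS1, which makes the side chain of ubiquinone, was the lowest at 21.8 TPM in DMSO cells and 11.3 TPM in JIB-04 cells (-0.89). FNTA, a subunit of protein prenyltransferases, was the highest at 106 and 143 TPM (0.44), and GGPS1, which makes geranylgeranyl diphosphate, was at 42.2 and 44.6 TPM (0.08). Of 7 genes of the oxysterol receptor LXR and its targets, 6 were described, with 0 higher and 1 lower by 2-fold and a median of -0.28. That gene was LPCAT3, which puts polyunsaturated chains into phospholipids, at 106 and 48.0 TPM (-1.12). NR1H3, the gene of LXR alpha, was at 25.3 and 15.4 TPM (-0.68), and NR1H2, that of LXR beta, at 91.8 and 110 TPM (0.26). SMPDL3A was the highest at 40.6 and 72.3 TPM (0.82).

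The last list, 17 of 20 described, held mainly other enzymes of fatty acid elongation, desaturation and activation. It also held LBR, described with the sterol enzymes above, which is not a fatty acid enzyme. With LBR kept, the list had the largest standard deviation of the lists read (0.92) and a median of -0.18. Past the 2-fold limit were 2 genes on the higher side and 3 on the lower side, where LBR (-1.02) was 1 of the 3. HACD2, a dehydratase of the elongation cycle, was at 113 TPM in DMSO cells and 19.3 TPM in JIB-04 cells, a log2 ratio of -2.49 [-2.59, -2.39], and 0.111% of all described genes had a ratio as low. ELOVL2, an elongase of polyunsaturated chains, was at 196 and 69.1 TPM (-1.49). The other elongases of the list, named after their values were seen, were nearer 0, with ELOVL1 at -0.42, ELOVL3 at -0.41, ELOVL7 at -0.05 and ELOVL4 at 0.33. On the other side stood FADS3, a relative of FADS1 and FADS2, at 64.0 and 158 TPM (1.29), and ACSL5, which activates fatty acids to their CoA esters, at 13.2 and 30.8 TPM (1.16).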
